A study of Mus musculus with 6 samples.

Results

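The marrow of the mouse skull roof was compared at 12 months of age between bone beside a suture and bone far from it. Members were all cells of 2 libraries that held 500 to 5000 genes, over 500 unique molecular identifiers (UMIs, 1 per captured transcript) and under 25% mitochondrial UMIs, and 4 immune classes cut from them by marker genes. The library CBMA_12m held 2718 such cells of 3280 barcodes and CBMD_12m held 4464 of 5356, together 7182 of the 37576 cells that passed the same limits in the series. The neutrophil gate asked for S100a8 plus S100a9 at 2% of a cell's UMIs or more and took 1470 CBMA_12m and 2473 CBMD_12m cells. The monocyte gate, at least 3 UMIs of Ly6c2 and 1 of Ccr2, took 325 and 402 cells. The T cell gate, at least 2 UMIs over Cd3d, Cd3e and Cd3g, took 116 and 367 cells, and the B cell gate, at least 2 UMIs of Cd79a, took 54 and 347. No gate took 844 and 1023 cells, and 90 CBMA_12m cells (3.31%) and 146 CBMD_12m cells (3.27%) passed more than 1.

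The study profiled single cells of the calvaria of wild-type C57BL/6 mice of 3 ages, named 02m, 12m and 18m, by droplet RNA sequencing from the 3' end. CBMA_12m came from the sagittal suture together with the parietal bone next to it, so that it also held suture mesenchyme, and CBMD_12m came from parietal bone away from the sutures. Both sites were stripped of dura and periosteum, digested with collagenase and dispase, freed of red cells by lysis and depleted of dead cells. The animals, stated to be male, were pooled within an age, so each side is 1 library with no replicate check. Levels are given as UMIs per 1000000 UMIs (CPM) of the summed cells of a class, ratios with an exact 95% interval for UMI counts and shares with an exact Clopper-Pearson interval, all of which cover counting error only. A gene was taken as measured with 50 UMIs or more over both libraries, and as called higher or lower at 1.5-fold or more. No p-value was computed. A CPM difference in a class cannot tell fewer transcript-bearing cells from less transcript per cell.

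Marrow neutrophils mature in steps that can be read from their transcripts. Promyelocytes make primary granule proteins such as myeloperoxidase and the serine proteases, dividing myelocytes make secondary granule proteins such as lactoferrin and cathelicidin, and the mature cells stop dividing and gain chemokine receptors and the capacity to make inflammatory mediators. B cells likewise pass from dividing precursors that carry a surrogate light chain to resting mature cells, and end as plasma cells that devote much of their transcript pool to immunoglobulin. Skull marrow sits in small cavities of the diploe and is linked to the dura by channels through the inner table.

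The neutrophil comparison turned on granule genes, higher beside the suture, and on chemokine and cytokine genes, lower there. The windows that end at the RefSeq start of 5 of these genes (build GRCm38.p6, 250 bases before the start, written 5' to 3' on the gene's strand) are printed to show the sequence in front of abundant transcripts of each group. Capitals mark a match to a C/EBP motif (TTNNGNAAT) in Ngp, Ltf and Il1b, and to an NF-kB motif of 10 letters in Cxcl2. The window of Camp held neither.
Ngp, chr9:110419558-110419807, plus strand: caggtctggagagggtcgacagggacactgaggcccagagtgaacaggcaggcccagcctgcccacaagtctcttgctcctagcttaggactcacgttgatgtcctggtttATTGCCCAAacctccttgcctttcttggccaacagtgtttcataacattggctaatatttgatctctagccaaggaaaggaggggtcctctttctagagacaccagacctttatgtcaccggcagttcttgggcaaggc
Ltf, chr9:111019042-111019291, plus strand: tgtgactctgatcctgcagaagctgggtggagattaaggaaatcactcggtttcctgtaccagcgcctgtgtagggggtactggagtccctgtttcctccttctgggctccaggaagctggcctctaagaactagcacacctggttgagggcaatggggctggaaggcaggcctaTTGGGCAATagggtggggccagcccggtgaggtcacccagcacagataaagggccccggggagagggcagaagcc
Camp, chr9:109849457-109849706, minus strand: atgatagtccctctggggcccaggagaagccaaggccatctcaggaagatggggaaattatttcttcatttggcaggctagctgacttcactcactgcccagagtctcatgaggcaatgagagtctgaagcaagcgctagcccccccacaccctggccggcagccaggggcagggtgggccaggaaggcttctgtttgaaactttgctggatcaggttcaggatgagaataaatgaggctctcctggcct
Cxcl2, chr5:90903649-90903898, plus strand: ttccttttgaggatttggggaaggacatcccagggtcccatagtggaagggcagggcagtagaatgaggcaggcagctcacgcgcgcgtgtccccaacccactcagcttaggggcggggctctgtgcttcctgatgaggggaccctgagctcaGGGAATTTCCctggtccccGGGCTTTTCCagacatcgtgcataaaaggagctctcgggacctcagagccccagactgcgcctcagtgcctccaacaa
Il1b, chr2:129371140-129371389, minus strand: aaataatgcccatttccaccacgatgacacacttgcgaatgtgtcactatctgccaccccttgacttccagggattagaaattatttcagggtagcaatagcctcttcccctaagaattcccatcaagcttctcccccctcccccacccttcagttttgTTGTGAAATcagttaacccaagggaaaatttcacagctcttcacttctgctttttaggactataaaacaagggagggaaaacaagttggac

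Each of 5 letter patterns was searched on both strands of 32851 RefSeq windows. The C/EBP pattern was in 5 of 8 windows of secondary granule genes (8 of the 10 genes on the list had a window) and in 7 of 19 windows of inflammatory genes (15 of 20 genes), against 10.2% of all windows. The NF-kB pattern was in 1 of 8 and 5 of 19, against 1.41%. An AP-1 pattern (TGANTCA) was in 0 of 8 and 4 of 19, against 6.75%. Of the other two patterns, which overlap these, TTNNGCAA was in 3 of 8 and 1 of 19 against 9.56%, and a narrower form of the NF-kB motif was in 0 of 8 and 3 of 19 against 0.356%. In Ngp the match ran from base -139 to -131 counted back from the start, in Ltf from -75 to -67 and in Il1b from -91 to -83, whereas Cxcl2 held a pair of matches at -97 to -88 and -78 to -69. A match describes letters and not bound protein.

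Each gate was enriched in other markers of the cells it was named for, but the gates overlapped. Of the monocyte-gated cells, 59 of 325 in CBMA_12m and 52 of 402 in CBMD_12m also passed the neutrophil gate. A further overlap of 20 and 33 cells lay between the monocyte and T cell gates. Inside the neutrophil gate Ly6g stood at 269 CPM in CBMA_12m and 331 in CBMD_12m, against 4.94 and 3.30 outside it. Trac, of the T cell receptor, stood at 429 and 442 CPM against 1.85 and 3.68 outside its gate, and Ms4a1, encoding CD20, at 357 and 436 CPM against 1.58 and 3.06. F13a1 marked the monocyte gate at 1265 and 1335 CPM against 97.8 and 41.9, while Csf1r was only 2.09 and 3.93 times higher inside that gate than outside, where nonclassical monocytes and macrophages also lie. The libraries held 12642642 and 21987713 UMIs in cells that passed the limits, with a median of 2806 and 3486.5 UMIs per cell. Xist, the transcript that silences an X chromosome in female cells, stood at 564 CPM in CBMA_12m and 596 in CBMD_12m but at 0.252 to 0.360 CPM in the other 4 libraries, although the animals were stated to be male. Of cells with UMIs of Xist or of Y-linked genes but not both, 63.6% of CBMA_12m and 67.2% of CBMD_12m carried Xist, so comparisons were repeated within each of these sets. The libraries shared 6 cell barcodes, none with an identical profile.

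Lymphocytes made up a smaller share of the marrow beside the suture. T cells were 4.27% (3.54 to 5.10) of CBMA_12m and 8.22% (7.43 to 9.07) of CBMD_12m, a share 1.93 times larger (1.56 to 2.39) away from the suture. B cells were 1.99% (1.496 to 2.58) against 7.77% (7.004 to 8.60), 3.91 times larger (2.93 to 5.31) away from it. Monocytes went the other way, at 12.0% (10.8 to 13.2) against 9.01% (8.18 to 9.88), a CBMA_12m over CBMD_12m ratio of 1.33 (1.14 to 1.54). The neutrophil shares, 54.1% (52.2 to 56.0) and 55.4% (53.9 to 56.9), had a ratio of 0.976 whose interval of 0.915 to 1.04 held 1.

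**Figure D1:**
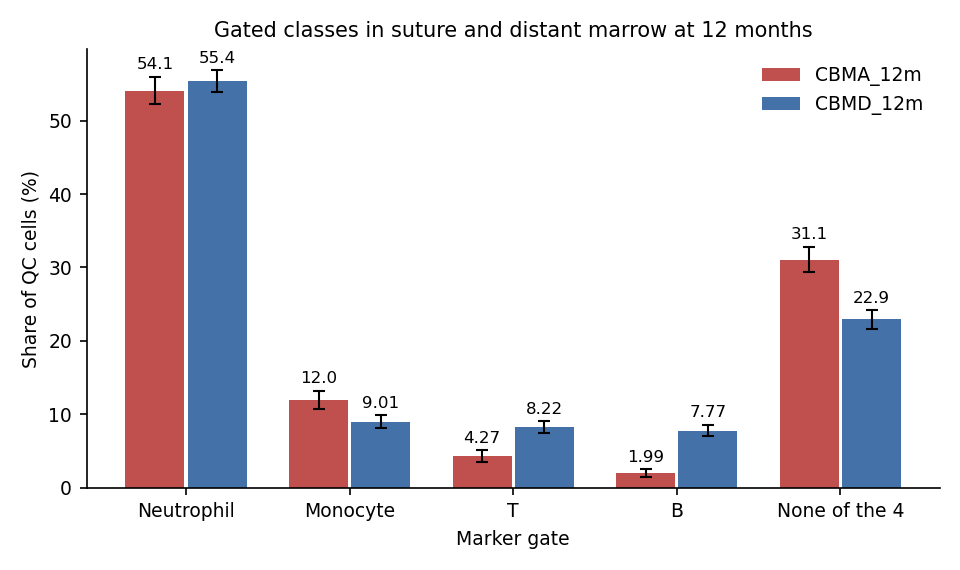
Share of quality-filtered cells (percent) passing each marker gate in CBMA_12m and CBMD_12m, with bars for the share and whiskers for the exact 95% interval. The T cell and B cell bars of CBMD_12m, 8.22% and 7.77%, stand above those of CBMA_12m, 4.27% and 1.99%, while the neutrophil bars overlap within their intervals.

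The gates rest on few UMIs, so depth enters the shares. When each cell was thinned to 1000 UMIs before gating, B cells were 1.36% and 4.32% of the libraries and T cells 2.43% and 3.25%, which moved the CBMA_12m over CBMD_12m ratio of T cells from 0.519 to 0.747 and that of B cells from 0.256 to 0.315. The monocyte ratio under thinning was 1.47. The T cell ratio at the other ages was 2.40 (1.87 to 3.10) at 02m and 1.24 (1.06 to 1.45) at 18m, and that of B cells was 1.61 (1.06 to 2.47) and 0.578 (0.464 to 0.720), each from 1 library a side.

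In the neutrophil gate, transcripts of early granulocytes were higher beside the suture and transcripts of activated granulocytes were lower. Over 10221 measured genes, 3801 were called higher in CBMA_12m (37.2%) and 1429 lower (14.0%), with a median log2 ratio of 0.35. With median-of-ratios size factors, which centre the median gene, the counts were 2068 higher and 2350 lower, so the split between higher and lower depended on the scaling while the lists below kept their direction except where stated.

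All 6 measured primary granule genes were called higher in CBMA_12m, with a median log2 ratio of 1.77 and a summed level of 4588 against 1417 CPM. Mpo, myeloperoxidase, stood at 1372 CPM in CBMA_12m and 424 in CBMD_12m (3.24-fold, 3.11 to 3.36), and Elane, neutrophil elastase, at 1495 and 470 (3.18-fold, 3.06 to 3.30). Prtn3, proteinase 3, stood at 1269 and 354 CPM. Ctsg, cathepsin G, was the nearest of these to even, at 193 and 99.0 CPM. Gfi1, a repressor needed for granulocyte differentiation, stood at 52.2 against 12.7 CPM (4.10-fold, 3.30 to 5.13), and Cebpe, the factor that drives secondary granule genes, at 289 against 75.6 CPM (3.82-fold, 3.49 to 4.18).

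Of 10 secondary granule genes 7 were called higher and none lower, with a median of 0.95 and summed levels of 52814 and 22953 CPM. Camp, the cathelicidin precursor, was at 22950 CPM in CBMA_12m and 7143 in CBMD_12m (3.21-fold, 3.18 to 3.24). Ngp, neutrophilic granule protein, was at 13737 and 6434 CPM (2.14-fold, 2.11 to 2.16), and Ltf, lactoferrin, at 3649 and 1726 (2.11-fold, 2.07 to 2.16). Both Ngp and Ltf carried the C/EBP letters printed above and Camp did not, and any part of the motif in these levels was not tested. Lcn2, at 6185 and 4657 CPM, and Hp, haptoglobin, at 1218 and 1107, were within 1.5-fold. After median-of-ratios scaling 5 of the 10 were called higher, against 20.2% of all measured genes.

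Cell cycle genes were higher beside the suture. In the list of G2 and M phase genes 50 of 54 were called higher and none lower (median 1.77, summed levels 7953 and 3704 CPM), and 36 of the 40 S phase genes measured were called higher (median 1.43). Top2a, the topoisomerase of dividing cells, stood at 371 CPM in CBMA_12m against 79.1 in CBMD_12m (4.69-fold, 4.30 to 5.11). The histone gene Hist1h2ap stood at 2150 and 410 CPM (5.24-fold, 5.05 to 5.44), although its near-identical cluster copies may share reads. Plk1, a mitotic kinase, was at 65.6 and 12.4 CPM, Kif22, a mitotic motor, at 52.4 and 9.15, and Cdc20, which starts anaphase, at 74.8 and 15.1. Among neutrophils thinned to 1000 UMIs, Top2a was found in 15.9% of 1324 CBMA_12m cells and 4.38% of 2261 CBMD_12m cells, and Mki67 in 15.3% and 5.13%.

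Mature neutrophil genes went the other way as a list. Of 13 measured, 7 were called lower in CBMA_12m and none higher, with a median of -0.64 and summed levels of 15281 and 26026 CPM. Il1r2, a decoy receptor for interleukin 1, stood at 164 CPM against 913 (5.56-fold lower), Trem1, an amplifying receptor of myeloid cells, at 174 against 584, and Retnlg, a resistin-like protein of marrow neutrophils, at 10045 against 18091. The receptors that guide release from marrow did not share this direction. Cxcr2 was at 473 and 444 CPM and Csf3r, the G-CSF receptor, at 1170 and 932, neither called. In the stefin A family of protease inhibitors 4 of 6 genes were called lower, though its members are close copies and the counting may split their reads. Of the 4 tertiary granule genes 1 was called lower (median -0.28).

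Inflammatory genes were lower beside the suture. All 20 of its genes were called lower in CBMA_12m, with a median of -2.09 against 0.35 for all measured genes, and the sum was 3694 CPM against 18364. Cxcl2, a chemokine that attracts neutrophils (chr5:90903871-90905938), stood at 708 CPM beside the suture and 6482 away from it (9.15-fold lower, 8.87 to 9.44). Acod1, which makes itaconate, was at 65.3 and 710 CPM (10.9-fold lower, 9.81 to 12.1), and Il1b, interleukin 1 beta, at 1123 and 4524 (4.03-fold lower). Brakes of NF-kB signalling were lower too: Tnfaip3, encoding A20, was at 28.7 against 455 CPM (15.9-fold, 13.6 to 18.6) and Nfkbia at 334 against 2091 (6.26-fold). Nlrp3, the inflammasome sensor, stood at 115 and 508 CPM and Tnf at 70.1 and 226. Ptgs2, the inducible cyclooxygenase, had the smallest difference of the 20, at 266 and 404 CPM (1.52-fold). Under median-of-ratios scaling 20 were again called lower, where 2350 of all 10221 measured genes were.

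**Figure D2:**
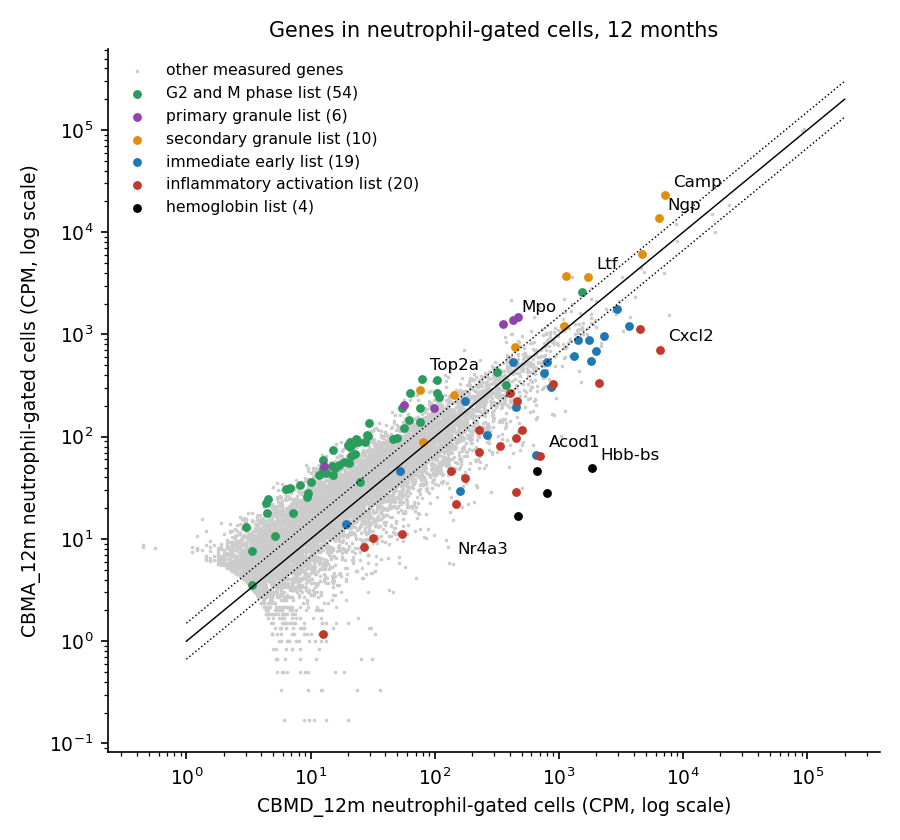
Level of each gene (CPM, log axes) in neutrophil-gated cells of CBMD_12m and CBMA_12m, 10218 genes with UMIs in both libraries, dotted lines at 1.5-fold. Granule and cell cycle genes such as Camp, at 22950 against 7143 CPM, lie on the CBMA_12m side, and Cxcl2, at 708 against 6482 CPM, and Nr4a3 lie far on the CBMD_12m side.

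The largest named ratios belonged to early response and signalling genes. Nr4a3, an orphan nuclear receptor induced within minutes of a stimulus, had 35 UMIs in CBMA_12m and 1168 in CBMD_12m (5.87 and 130 CPM, 22.2-fold lower, 15.9 to 32.0). Iqcn stood at 5.71 and 140 CPM (24.5-fold lower, 17.5 to 35.6), and its reads may be hard to separate from neighbouring genes on chromosome 8. Cd14, the co-receptor for lipopolysaccharide, stood at 31.7 and 506 CPM (16.0-fold lower, 13.8 to 18.6). Thbs1, thrombospondin 1, stood at 102 and 1041 CPM, and Atf3, a stress-induced factor, at 66.3 and 654. Of 19 immediate early genes 14 were called lower and none higher (median -1.09, sums 10071 and 21815 CPM), among them Jund (553 and 1799 CPM) and Dusp1 (1204 and 3655 CPM). Egr1 (223 and 174 CPM) and Ier2 (541 and 426 CPM), members of the same list, were not called. Heat shock genes were called lower in 3 of 11 (median -0.50), where 14.0% of all genes were, and in 8 of 11 after median-of-ratios scaling, where 2350 of 10221 genes were, with Hspa1a at 12.6 and 76.5 CPM. These stress and early response lists moved with the inflammatory list, and whether handling or digestion of the tissue had a part was not tested. Of 35 interferon-stimulated genes measured, 4 were called higher and 6 lower, where 37.2% and 14.0% of all genes were. Their median was 0.07 against 0.35 for all genes. After median-of-ratios scaling 0 were higher and 12 lower, where 2068 and 2350 of all 10221 genes were.

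The share of neutrophils with a Cxcl2 UMI, at 1000 UMIs per cell, was 39.2% in CBMA_12m and 79.3% in CBMD_12m. In T cells of the same libraries, which should lack most of it, the share was 7.76% in CBMA_12m and 73 of 365 cells in CBMD_12m, so both neutrophil values were above those of T cells, 8 and 36 of which also passed the neutrophil gate. Acod1 was found in 7.93% and 42.0% of neutrophils, Atf3 in 9.67% and 39.6%, and Nr4a3 in 0.982% and 13.2%. Mpo was found in 45.2% and 13.2% of neutrophils and in 31.9% and 8.77% of T cells, and Elane in 30.9% and 8.62% against 12.9% and 4.11%, so much of the Mpo detection was matched in cells that do not make it.

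Ngp, a secondary granule transcript, was at 0 UMIs in 55.9% of CBMD_12m and 38.5% of CBMA_12m neutrophils thinned to 1000 UMIs. It was also found in 23.3% of CBMA_12m and 9.14% of CBMD_12m T cells, and Mpo, of the earlier primary granules, stood at 1292 CPM in CBMA_12m neutrophils without Ngp and 817 in those with it, so the cells without it were no single stage. The inflammatory difference was present on both sides of that split, which was chosen after the data were seen. Among cells without Ngp, Cxcl2 stood at 1627 CPM in 510 CBMA_12m cells and 9188 in 1263 CBMD_12m cells (5.65-fold lower, 5.26 to 6.07), and 16 of 19 inflammatory genes were called lower against 15.6% of all measured genes. In cells with Ngp, Cxcl2 stood at 957 and 5801 CPM (6.06-fold lower, 5.62 to 6.54), and 15 of 17 were called lower against 13.1%. The G2 and M phase difference was also present on both sides: 11 of 15 and 29 of 34 genes were called higher against 26.0% and 28.3%. S phase genes were called higher in 14 of 17 with Ngp but in only 1 of 6 without it, against the same shares. Secondary granule genes were called higher in 5 of 7 without Ngp and 3 of 10 with it, against 26.0% and 28.3% of all genes. Ngp is itself on that list, so the split bears on this count. Of 13 mature neutrophil genes, 3 were higher and 4 lower without Ngp (median -0.06), and 1 higher and 6 lower with it (median -0.12). Cxcr2 was at 951 and 543 CPM in cells without Ngp (1.75-fold higher in CBMA_12m) and at 538 and 376 in cells with it, although it was not called in the whole gate.

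The neutrophil pattern was not the same at each age. At 02m all 20 inflammatory genes were called lower in CBMA (median -1.33, sums 5457 and 15965 CPM, 9.19% of all genes lower), while at 18m none was (median -0.18, sums 14514 and 16041 CPM, 2.70% of all genes lower). The G2 and M phase list had 45 genes higher at 02m, where 20.2% of all genes were, and 5 at 18m, where 5.97% were. Each age is 1 library a side, and the difference between ages was not tested.

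Monocytes were close between sites in classical monocyte genes, some of which are gate genes. Of 9425 measured genes 1078 were called higher in CBMA_12m (11.4%) and 1163 lower (12.3%), with a median of 0.04. None of the 10 classical monocyte genes was called (sums 26028 and 24931 CPM). The list includes Ly6c2 (1890 and 1793 CPM) and Ccr2, on which the cells were gated, so their closeness was partly set by the gate. Among the genes not used in the gate, F13a1, a subunit of coagulation factor XIII, stood at 1265 and 1335 CPM. Fn1, fibronectin, stood at 1934 and 2151.

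The activation genes were again lower beside the suture. The inflammatory list had 15 of 18 measured genes called lower and 1 higher, with a median of -1.76 and sums of 1025 and 3157 CPM. Cxcl2 stood at 71.7 and 615 CPM (8.57-fold lower), Il1b at 95.2 and 377, and Ccl4, a chemokine for T cells and monocytes, at 40.7 and 204. Acod1 stood at 3.13 and 64.0 CPM (20.4-fold lower, 10.9 to 43.1). Cxcl10, an interferon-induced chemokine, was the exception at 59.8 and 37.9 CPM (1.58-fold higher). Cxcl2 was found in 7.43% and 22.1% of monocytes at 1000 UMIs, near the shares in T cells, and so at the level of background. Acod1 was likewise found in 0.929% and 5.22% of monocytes and in 0% and 4.66% of T cells. Its monocyte ratio is thus also near the level of background. Nr4a3 stood at 10.7 and 149 CPM (14.0-fold lower, 9.91 to 20.4), Nr4a2 at 47.0 and 408 (8.69-fold lower), Tnfaip3 at 37.0 and 322 and Hspa1a at 32.9 and 258. Immediate early genes were lower in 14 of 19 and higher in 1, Ier2 (332 and 208 CPM), and heat shock genes were lower in 4 of 10. With only cells that passed exactly 1 gate, 11 of 18 inflammatory genes were called lower, where 10.0% of all genes were.

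Few interferon-stimulated genes were called in monocytes, and how many depended on the cells and the scaling. Of 37 measured, 9 were called higher, where 11.4% of all genes were, and 1 lower, with a median of 0.32 against 0.04 for all genes. After median-of-ratios scaling 5 of 37 were higher, where 9.63% of all genes were. In cells that passed exactly 1 gate 15 of 36 were higher and 0 lower, where 11.7% and 10.0% of all genes were. In cells with a Y-linked UMI and no Xist 4 were higher and 3 lower of 24, where 11.7% and 14.5% of all genes were. Ifit1, a sensor of viral RNA, stood at 34.5 and 15.3 CPM (2.25-fold), Irf7, which amplifies interferon production, at 108 and 67.0 (1.62-fold), and Slfn5 at 316 and 188 (1.68-fold). Rsad2, viperin, was the member called lower, at 53.3 and 81.6 CPM.

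Granule and cell cycle transcripts were higher in the monocyte gate too. All 6 primary granule genes and 7 of 10 secondary granule genes were called higher and 1 secondary gene lower, with Camp at 7312 and 1335 CPM and Ms4a3, a marker of granulocyte and monocyte progenitors, at 105 and 15.8 (6.65-fold). G2 and M phase genes were higher in 35 of 53 and lower in none (median 0.67), and in 21 of 52 in cells that passed exactly 1 gate. Over all deposited barcodes 1 of 6 primary granule genes (median 0.34) and 12 of 54 G2 and M phase genes were called higher, where 9.59% of all genes were. The neutrophil transcripts moved with these values: the 7 genes of the neutrophil background list summed to 66625 and 23838 CPM in the monocyte gate, with 6 called higher. At 1000 UMIs Camp was found in 39.4% and 15.4% of monocytes and in 36.2% and 15.2% of T cells, so the share was near that in T cells, and 10 monocyte-gated cells held 58.6% of its CBMA_12m UMIs and 91.2% of its CBMD_12m UMIs. Its log2 ratio was 1.87 in monocytes with Xist and 6.54 in those with Y-linked UMIs. Mpo was likewise found in 27.6% and 8.71% of monocytes and in 31.9% and 8.77% of T cells. Elane was found in 22.9% (18.4 to 27.9) and 7.46% (5.09 to 10.5) of monocytes. Its T cell shares were lower, at 12.9% (7.42 to 20.4) and 4.11% (2.32 to 6.69), but the intervals overlapped in both libraries. The secondary granule count fell to 4 of 8 in cells that passed exactly 1 gate, where 11.7% of all genes were higher.

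**Figure D3:**
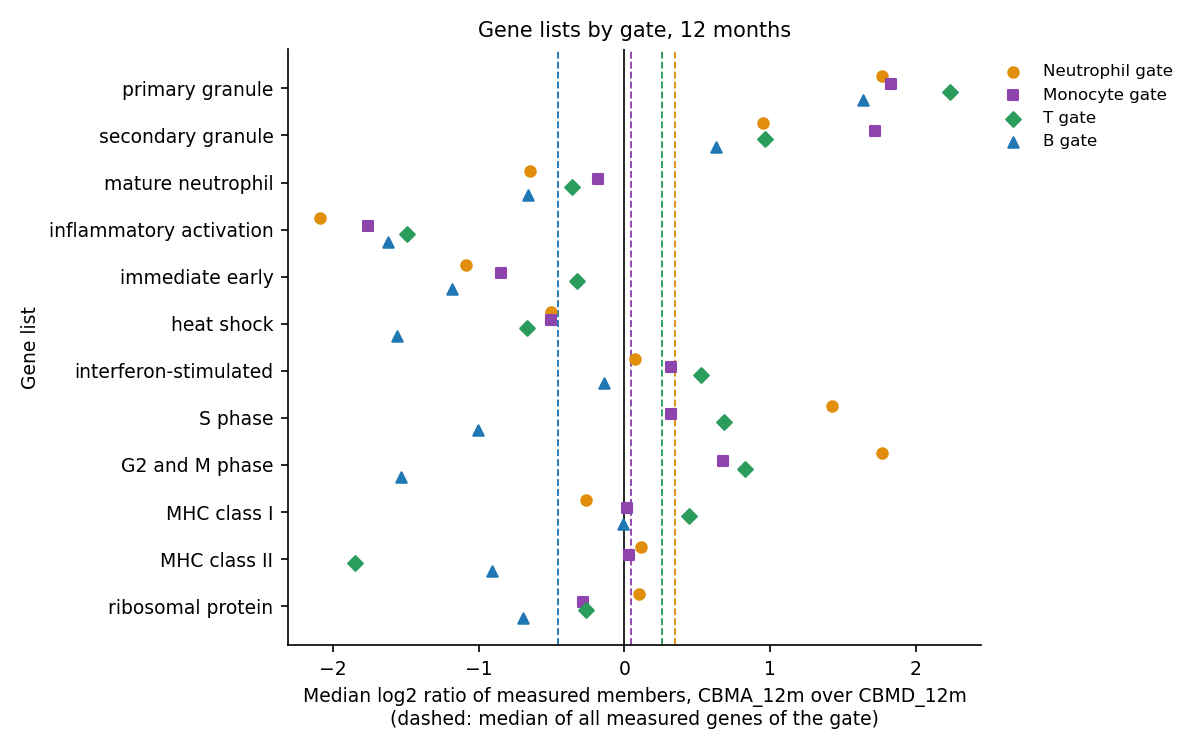
Median log2 ratio of CBMA_12m over CBMD_12m for each gene list in the neutrophil, monocyte, T cell and B cell gates, with a dashed line for the median of all measured genes of the class. The inflammatory list lies far below the line in neutrophils (-2.09), monocytes (-1.76) and T cells (-1.49), and the G2 and M phase list lies above it in neutrophils (1.77) and below it in B cells (-1.53).

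The Cd4, Cd8 and gamma delta shares of T cells were close between the sites. The share with a Gzmk UMI, given below, was not, and stress and activation genes also differed. Over 6852 measured genes 1821 were called higher in CBMA_12m (26.6%) and 789 lower (11.5%), with a median of 0.26. With median-of-ratios scaling the counts were 768 and 1352. Among T cells of CBMA_12m and CBMD_12m, those with a UMI of Cd4 and none of Cd8a or Cd8b1 were 14.7% and 14.2%, those with the reverse 37.9% and 33.5%, and those with a UMI of the gamma delta receptor genes Trdc or Tcrg-C1 14.7% and 14.4%.

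Heat shock genes were lower in T cells beside the suture. Of 10 measured, 5 were called lower in CBMA_12m (8 after median-of-ratios scaling, where 19.7% of all genes were lower), with a median of -0.67 and sums of 3474 and 5605 CPM. Hspa1a, the inducible HSP70 (chr17:34969190-34972156), had 3 UMIs in CBMA_12m and 1171 in CBMD_12m, 4.14 against 478 CPM (115-fold lower, 39.4 to 561), and was seen in 3 cells against 105 cells (28.6%). Hspa1b, its near-identical copy, stood at 24.9 and 597 CPM (24.0-fold lower, 15.1 to 40.6), and reads may be split between the copies. Pde4c, a phosphodiesterase next to Iqcn on chromosome 8, had 0 UMIs against 125 and so was at least 12.3-fold lower in CBMA_12m, against a floor of 3 UMIs per library. Tgif1 stood at 44.2 and 356 CPM and Ell2, an elongation factor, at 12.4 and 126.

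The inflammatory list had 15 of 18 genes lower and 1 higher in T cells (median -1.49), and 7 of 12 lower in cells that passed exactly 1 gate, where 10.9% of all genes were. Tnfaip3, which T cells make themselves, stood at 254 and 1042 CPM (4.10-fold lower) and Nfkbia at 382.5 and 840, while Cxcl2, at 63.5 and 695 CPM, is a neutrophil transcript in these libraries. Satb1, a chromatin organiser of the T lineage, stood at 344 and 892 CPM, and Ccr7, which guides naive cells to lymph nodes, at 45.6 and 129. Of the 7 naive genes these 2 were the ones called.

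The count of effector transcripts called depended on the scaling. Of 13 effector and exhaustion genes 6 were called higher, where 26.6% of all genes were, and 1 lower (median 0.42 against 0.26 for all genes). After median-of-ratios scaling 3 were higher and 3 lower (median 0.13), where 11.2% and 19.7% of all genes were. Gzmk, granzyme K, stood at 42.8 and 9.81 CPM (4.37-fold) and was seen in 12.1% (6.76 to 19.4) and 3.27% (1.70 to 5.64) of T cells. Cxcr3, a receptor for interferon-induced chemokines, stood at 116 and 32.3 CPM, Id2 at 589.6 and 233, and Nkg7, of cytotoxic granules, at 797 and 477. Ifng was lower, at 62.1 and 109 CPM. Of 14 class I antigen presentation genes 5 were called higher, among them Psmb8 (428 and 249 CPM) and Tap2 (148 and 73.5 CPM), but after median-of-ratios scaling 1 was higher, where 11.2% of all genes were, and 1 lower. The class II genes, not made by resting mouse T cells, were called lower in 4 of 5, with H2-Aa at 23.5 and 100.5 CPM.

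Few cells carried several of the T cell values. Hist1h2ap stood at 960 and 183 CPM with 52.4% of its CBMA_12m UMIs in 1 cell, Nrn1 had 45 and 7 UMIs with 53.3% in 1 cell, and Spp1 stood at 87.0 and 18.4 CPM with 84.1% in 1 cell and reversed in cells carrying Xist. Shprh, a ubiquitin ligase, was spread more widely, in 25.9% of CBMA_12m T cells and 5.45% of those of CBMD_12m (52.5 and 11.0 CPM, 4.76-fold, 2.83 to 8.10). G2 and M phase genes were higher in 13 of 25 and lower in 1, and higher in 8 of 20 in cells that passed exactly 1 gate, where 26.7% of all genes were.

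B cells differed in the share of cells rich in Jchain, which decided much of the comparison. Cells with a UMI of Vpreb1, Vpreb3, Igll1 or Dntt, transcripts of B cell precursors, were 20 of 54 CBMA_12m B cells (37.0%, 24.3 to 51.3) and 186 of 347 CBMD_12m cells (53.6%, 48.2 to 58.9), and these intervals overlap. Cells with at least 10 UMIs of Jchain, the joining chain of secreted antibody, were 20 of 54 (37.0%, 24.3 to 51.3) and 40 of 347 (11.5%, 8.36 to 15.4), and held a median of 22407.5 and 24062 UMIs, more than the medians of 5144.5 and 4822 for the whole gate. In or out of the B cell gate, such cells were 1.69% (1.24 to 2.25) of CBMA_12m and 1.41% (1.09 to 1.80) of CBMD_12m. These intervals overlap. Those in the B cell gate were 0.736% and 0.896% of all cells. Over 6392 genes 364 were called higher in CBMA_12m (5.69%) and 2695 lower (42.2%), with a median of -0.46, and 850 and 1589 after median-of-ratios scaling. Without the cells of at least 10 Jchain UMIs the counts were 777 and 1109.

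Precursor genes were lower beside the suture. All 8 measured were called lower (median -2.28, sums 725 and 2174 CPM), where 42.2% of all genes were. Vpreb1 and Igll1, which form the surrogate light chain, had 0 UMIs in CBMA_12m against 121 and 64 in CBMD_12m, at least 9.57-fold and 5.06-fold lower against a floor of 3 UMIs per library. Rag1, the recombinase, had 4 against 102 UMIs, and Ebf1, a factor that commits cells to the B lineage, stood at 335 and 1046 CPM. Without the cells of at least 10 Jchain UMIs 6 of the 8 were called lower, where 21.0% of all genes were. Dividing-cell genes were lower too, in 29 of 34 for G2 and M phase and 18 of 26 for S phase, against the same 42.2%. Stmn1, which destabilises microtubules, stood at 18.8 and 171 CPM. The G2 and M phase count was 18 of 31 without the cells of at least 10 Jchain UMIs, against the same 21.0%.

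Plasma cell genes were higher, 7 of 9 against 1 lower (sums 19589 and 13204 CPM), where 5.69% of all genes were higher and 42.2% lower. Xbp1, which drives secretion, stood at 871 and 427 CPM, Sdc1, encoding CD138, at 193 and 78.8, and Tnfrsf17, encoding BCMA, at 105 and 38.3, while Irf4 was lower at 108 and 191. Sel1l, of the degradation machinery of the endoplasmic reticulum, stood at 352 and 88.8 CPM and the metallothionein Mt1 at 1059 and 275. Igkc, the kappa constant region, stood at 288432 and 145269 CPM, and Ighm at 89265 and 42397. Slpi, at 3628 and 1184 CPM, had 61.3% of its CBMA_12m UMIs in 1 cell. Without the cells of at least 10 Jchain UMIs 1 of 4 plasma cell genes measured was called higher, where 14.7% of all genes were.

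Other B cell lists turned on the same cells. Over the whole gate 42.2% of all genes were called lower, with a median of -0.46. Class II genes were lower in 9 of 10 (median -0.91, sums 7124 and 10876 CPM). Mature B genes were lower in 6 of 11 (median -0.94), near the share of all genes. Without the cells of at least 10 Jchain UMIs the medians were 0.26 and 0.28, and 0 class II genes were lower. Cxcr5, the follicle-homing receptor, stood at 7.83 and 69.5 CPM in the whole gate. Heat shock genes were lower in 10 of 11 (median -1.56), with Hspa1a at 2 against 597 UMIs (70.8-fold lower, 19.5 to 586), and 3 of 10 were called lower without those cells, where 21.0% of all genes were. Ribosomal protein genes were lower in 58 of 76 (median -0.69) in the whole gate and in 1 of 76 without them.

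The immunoglobulin background differed between the libraries. In neutrophils, which do not make antibody, immunoglobulin genes summed to 3871 and 2127 CPM, and in neutrophils outside the B cell gate to 3523 and 2046. In T cells outside the B cell gate the sums were 7317 and 880 CPM, in monocytes 1769 and 877, and in barcodes with under 500 genes 30425 and 7339. In these sets of cells it was higher in CBMA_12m, although B cells were the rarer there. The sum over the whole monocyte gate (14394 and 5458 CPM) was the exception to a steady direction, with a log2 ratio of -0.34 over all deposited barcodes and -0.0070 in cells with Xist. At 1000 UMIs an Igkc UMI was found in 78.8% of CBMA_12m and 46.1% of CBMD_12m neutrophils, against 100% and 92.4% of B cells. Single constant regions did not all share the direction: in neutrophils Igkc stood at 2003 and 1081 CPM and Ighm at 822 and 339.9, but Ighg2c at 71.9 and 294 and Iglc3 at 3.70 and 18.8, as in the B cell gate, where Ighg2c stood at 5456 and 14644 and Iglc3 at 770.5 and 5839. The sums can rest on few cells: the median immunoglobulin share of a T cell's UMIs was 0.190% in CBMA_12m and 0.0820% in CBMD_12m. In no gate, 19 and 7 cells held at least 10 Jchain UMIs. Immunoglobulin calls outside B cells were therefore not read as made by those classes. Free RNA was not told apart from antibody-making cells or doublets outside the B cell gate.

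Hemoglobin ran opposite. Its genes summed to 140 and 3853 CPM in neutrophils outside the B cell gate, 269 and 3635 in monocytes, 949 and 4611 in T cells and 53355 and 436126 in barcodes with under 500 genes. All 4 hemoglobin genes were called lower in each of the 4 gated classes. The primary granule list summed to 6417 and 869.9 CPM in the barcodes with under 500 genes, and the S100a8 and S100a9 sum in T cells was 18620 and 15704.

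Neutrophil transcripts in T and B cells did not keep 1 direction across sets of cells. In T cells that passed exactly 1 gate 6 of 6 secondary granule genes and 6 of 7 neutrophil background genes were called higher in CBMA_12m. Of all genes 26.7% were. In T cells with Xist, however, 4 of 6 (median -0.95) and 6 of 7 (median -1.11) were called lower, where 11.9% of all genes were, and in those with a Y-linked UMI all 6 (median 5.24) and all 7 (median 5.12) were called higher, where 21.2% were. B cells split likewise. With Xist, 5 of 6 secondary granule genes (median -0.97) and 7 of 7 neutrophil background genes (median -2.44) were lower, where 52.3% of all genes were, and with a Y-linked UMI 5 of 5 (median 4.98) and 6 of 7 (median 4.90) were higher, where 5.80% were. The source of these transcripts was not tested.

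**Figure D4:**
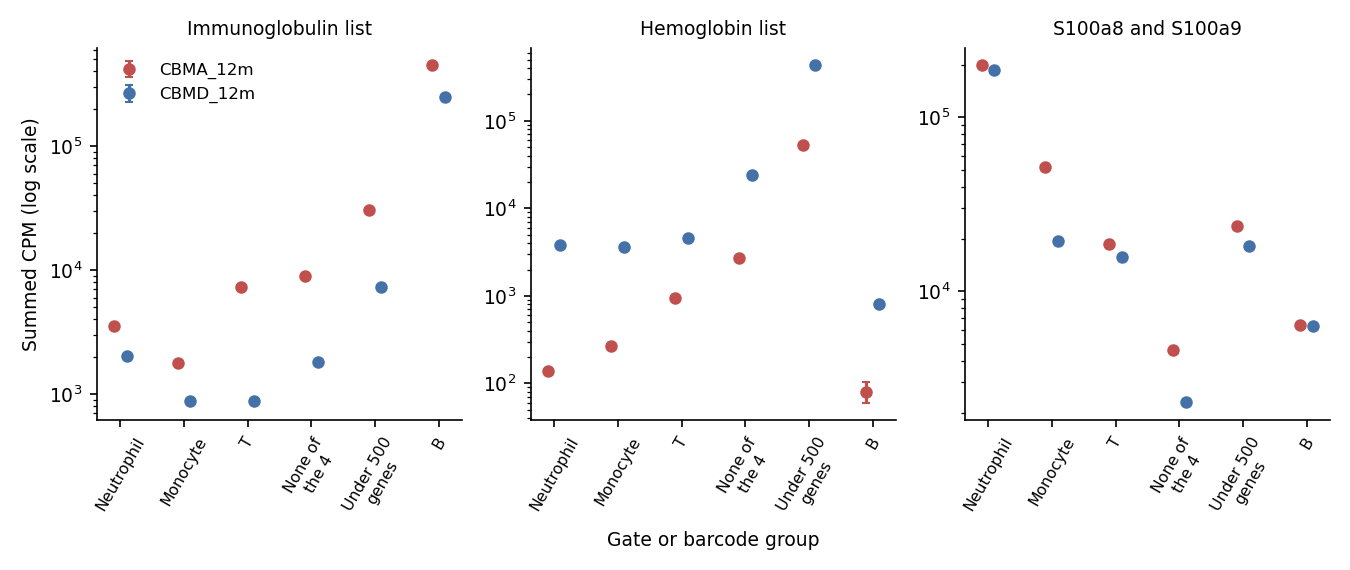
Summed CPM (log axis) of immunoglobulin, hemoglobin and S100a8 plus S100a9 transcripts in the gates without cells that also passed the B cell gate (for B cells, the whole gate) and in barcodes under 500 genes, CBMA_12m and CBMD_12m, with exact 95% intervals. Immunoglobulin outside the B cell gate is higher in CBMA_12m, as in T cells at 7317 against 880 CPM, and hemoglobin is lower, as in neutrophils at 140 against 3853 CPM.

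Read over the 4 gated classes, 36 genes were called higher in all (0.637% of 5654 measured in each) and 245 lower in all (4.33%). The genes higher in all included Camp, Elane, Mpo, Ngp, Ltf, Igkc and Ighm, transcripts also found in T cells, along with Sel1l, Spn, Lta4h and S1pr4. Those lower in all included Acod1, Nr4a3, Cxcl2, Tnfaip3, Cd14, Atf3 and Iqcn. The classes share their libraries and some cells, and so are not separate observations. How far free RNA set these shared calls was not tested. At 1000 UMIs Cxcl2 in monocytes was at the T cell level, whereas in neutrophils it was above.

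Outside the 4 gates the sites differed in the shares of progenitor-gated and endothelial-gated cells. Cells with 5 UMIs or more over the primary granule genes Mpo, Elane and Prtn3, called progenitor-gated here, were 10.3% (9.15 to 11.5) of CBMA_12m and 2.78% (2.32 to 3.30) of CBMD_12m, with median UMIs of 2533 and 6153.5, and Mpo and Elane were also found in T cells of CBMA_12m. Summed over the cells in no gate, primary granule genes stood at 3388 and 2409 CPM, nearer to even than the progenitor-gated shares. In barcodes with under 500 genes they stood at 6417 and 869.9 CPM. How far free RNA or depth set the progenitor-gated shares was not tested. Endothelial-gated cells (3 UMIs or more over Cdh5, Pecam1, Emcn and Kdr) were 4.08% (3.37 to 4.90) and 1.90% (1.52 to 2.35). Over all cells 2904 of 14205 measured genes were called higher (20.4%) and 2015 lower (14.2%), with a median of 0.18, and 1669 and 2904 after median-of-ratios scaling.

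Of 12 endothelial genes 10 were called higher in CBMA_12m and 1 lower (median 1.70, sums 505 and 191 CPM). Vwf, von Willebrand factor (chr6:125546774-125686679), stood at 71.2 and 7.96 CPM (8.94-fold, 7.60 to 10.6) in 148 and 94 cells. Emcn, endomucin, stood at 37.8 and 7.69 CPM, Flt1, a receptor for VEGF, at 109.5 and 26.0, and Cdh5, VE-cadherin, at 29.8 and 10.6. Stab2, a scavenger receptor of sinusoids, was the member called lower, at 2.61 and 5.46 CPM.

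The mesenchymal list did not mark the suture library as the richer in stroma. Of 13 genes 2 were called higher in CBMA_12m and 6 lower, with a median of -0.57 and sums of 416 and 568 CPM, although the suture mesenchyme was part of the dissected tissue. Cxcl12, the chemokine of marrow reticular cells, stood at 67.6 and 192.5 CPM, Col3a1 at 4.67 and 43.4, Adipoq, adiponectin, at 1.66 and 10.0, and Postn, periostin, at 1.11 and 9.32. Dcn, decorin, was higher, at 145.5 and 20.5 CPM, but 91.6% of its CBMA_12m UMIs lay in 10 cells and it was lower in cells with Y-linked UMIs. Mesenchymal-gated cells were 1.43% of CBMA_12m and 1.10% of CBMD_12m.

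Erythroid genes were lower in 9 of 10 (median -2.07, sums 853 and 8632 CPM), with Hbb-bs at 331 and 4079.5 CPM, and in 2 genes among cells with Y-linked UMIs and no Xist, where 12.6% of all genes were lower. Red cells were lysed in both preparations. Basophil genes were lower in 4 of 6, with the protease Mcpt8 at 464 and 975.6 CPM, although basophil-gated cells were 2.24% and 2.46%. Megakaryocyte genes were lower in 4 of 5, with Pf4, platelet factor 4, at 37.7 and 116 CPM. Ttr, transthyretin, had 2735 UMIs in CBMA_12m and 0 in CBMD_12m, of which 2664 (97.4%) lay in 1 cell.

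Among genes measured in both sets, the cells with Xist and the cells with Y-linked UMIs gave most of the calls alike in the myeloid gates. In neutrophils 1774 of the 3801 genes called higher and 806 of the 1429 called lower were measured in both. Of neutrophil genes that could be measured in both the Xist cells and the Y-linked cells, 75.4% of those called higher and 89.0% of those called lower were called in both sets. In monocytes these shares were 63.4% and 69.3%, in T cells 53.0% and 68.1% and in B cells 22.8% and 61.7%, where the sets were small. The 40 named neutrophil and monocyte genes kept their direction in both sets. They were picked for large ratios over all cells of the gates, of which both sets are parts. Their shared direction, like the shares above, is therefore not an independent check.

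**Figure D5:**
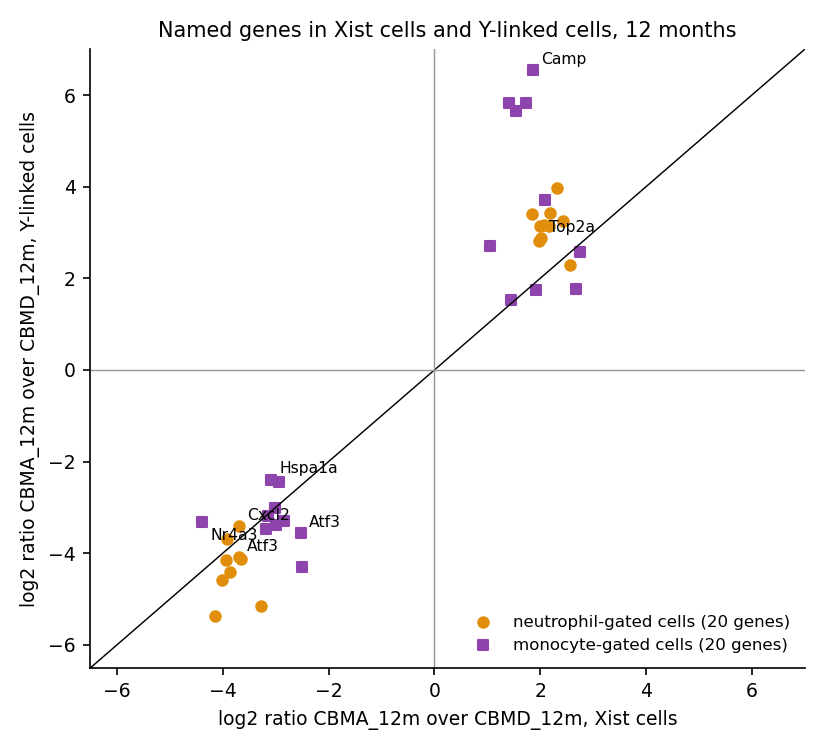
Log2 ratio of CBMA_12m over CBMD_12m for the 40 named genes of the neutrophil and monocyte gates, in cells with Xist and no Y-linked UMI against cells with Y-linked UMIs and no Xist. All 40 points lie in the quadrants where both ratios have the same sign. The genes were picked by their ratios over all cells of each gate, of which both sets are parts.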

How the data were processed

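Single-cell RNA was captured with a droplet 3' kit (version 3 chemistry) from 1 pooled library per age and site, demultiplexed with bcl2fastq and aligned to GRCm38 with Cell Ranger (5.0.1 in the file headers). The authors deposited raw UMI counts per gene and barcode for 55450 genes, with no normalization. Here, cells were kept and gated by the limits given in the results and UMIs were summed per gate. CBMA_12m was divided by CBMD_12m after scaling by total UMIs (CPM), with an exact conditional interval for the ratio of UMI counts. Where a library had 0 UMIs of a gene, a floor of 3 was used. Thinning drew 1000 UMIs per cell without replacement and left out shallower cells. Work was done in Python 3.11.15 with pandas 2.3.3, matplotlib 3.10.9, scanpy 1.11.5, scipy 1.17.1 and numpy 2.4.6. Gene positions came from the GENCODE annotation of GRCm38, which held all 55450 identifiers, and windows before gene starts from RefSeq.

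Named genes were, in each class, the 10 each way (6 in T and B cells) ranked by the interval bound nearest 1, among measured genes with at least 50 CPM in the higher library and at least 0.5 of that library's level outside the class. Gate, immunoglobulin, mitochondrial, Xist, Y-linked and unnamed genes were left out of the ranking. Members of 34 gene lists could also be named. The members and lists were chosen with earlier results of these data known. The ratio and call code was tested on simulated data.

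Doublets were kept. Scrublet marked 4 cells (0.147%) of CBMA_12m and 2 (0.0448%) of CBMD_12m, too few for a working caller, so the 71 and 191 highest scores were left out as an alternative instead. Free RNA was not subtracted, and levels per gate are printed in its place. Mice were pooled before capture and no label ties a cell to an animal. Alternatives covered scaling, the UMI minimum, the fold, depth, cell limits, gates, doublets and the Xist and Y-linked sets of cells. The share of cells in a red cell gate is not reported here.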

Additional observations from a re-analysis of the deposited data

Results flagged for a closer look

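Several site differences pointed in opposite directions at different ages, each from 1 library a side, and the differences between ages were not tested. The share of T cells in CBMA over CBMD was 0.519 at 12m and 2.40 at 02m, and that of B cells was 0.256 at 12m and 1.61 at 02m. The summed erythroid list over all cells had a log2 ratio of CBMA over CBMD of -3.34 at 12m, 3.34 at 02m and 0.92 at 18m. The megakaryocyte list had -1.31 at 12m and 0.96 at 02m, and the basophil list -1.05 and 0.73. Hemoglobin transcripts in neutrophils, which do not make them, had log2 ratios of -4.76 at 12m, 3.23 at 02m and 2.11 at 18m.

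Xist lay outside the comparisons and reached 564 CPM in the suture library, with an interval of 551 to 577, and 596 CPM in the distant library, with 586 to 607, against at most 0.360 CPM in the other 4 libraries. The labels give male mice for each age. Xist alone was found in 917 and 1727 cells, Y-linked transcripts alone in 525 and 843, and both in 108 and 152.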

How the results depend on the processing

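Of 32 values of class share ratios under alternatives, 30 moved by less than their interval. The neutrophil ratio was 1.06 in cells with a Y-linked UMI and no Xist, and the T cell ratio 0.747 with gates on cells thinned to 1000 UMIs.

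Counts of genes called stayed within 1.5 times in 67 of 124 cases. Median-of-ratios scaling gave 1669 higher genes in all cells, and higher and lower counts of 2068 and 2350 in neutrophils, 768 and 1352 in T cells and 850 and 1589 in B cells. A minimum of 20 UMIs gave 1835 lower genes in monocytes, 2944 higher and 1371 lower in T cells and 742 higher in B cells. A minimum of 200 UMIs gave 1927 and 1119 in all cells, 1982 and 899 in neutrophils, 383 and 491 in monocytes, 361 and 293 in T cells and 100 and 893 in B cells. A 2-fold threshold gave 1052 and 1075, 1801 and 801, 282 and 552, 506 and 413, and 98 and 1375 in the same order. An interval wholly past 1.5 gave 1397 and 1091, 1871 and 886, 220 and 490, 273 and 265, and 78 and 674. Sums thinned to the smaller total gave 1116 and 443 in T cells and 183 and 1178 in B cells. Leaving immunoglobulin, hemoglobin and mitochondrial genes out of the total gave 1134 and 1236 in B cells. Cells with Xist and no Y-linked UMI gave 2451 higher genes in neutrophils. Cells with a Y-linked UMI and no Xist gave 1303 lower in all cells, 1961 higher in neutrophils, 665 higher in monocytes, 399 and 364 in T cells and 130 and 940 in B cells. Fewer UMIs in these sets, in thinned sums and under a higher minimum leave fewer genes to measure.

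Counts of list members called stayed within 1.5 times in 103 of 116 cases. Cells with a Y-linked UMI gave 2 erythroid genes lower in all cells, 6 inflammatory genes lower in T cells, and 8 G2 and M phase, 4 class II and 5 precursor genes lower in B cells. Cells with Xist gave 14 G2 and M phase genes lower in B cells. Cells passing exactly 1 gate gave 4 secondary granule genes higher in monocytes and 7 inflammatory genes lower in T cells. Median-of-ratios scaling gave 8 heat shock genes lower in T cells and 5 class II genes lower in B cells.

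Leaving out cells with at least 10 Jchain UMIs, chosen after seeing the data, gave 777 higher and 1109 lower genes in B cells, 18 G2 and M phase and 0 class II genes lower, and 1 plasma cell gene higher. It turned the median of the class II list to 0.26, that of the mature B list to 0.28 and the log2 ratio of Slpi to -1.01. The split of neutrophils by Ngp was also chosen after seeing the data.

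Of 431 list medians and sums 372 stayed and 6 reversed, among them the immunoglobulin sum in monocytes (-0.34 over all deposited barcodes, -0.0070 in cells with Xist) and, in cells with Xist, the secondary granule medians in T cells (-0.95) and B cells (-0.97). Of 555 values of named genes 544 stayed and 3 reversed, which beside Slpi were Dcn over all cells (-0.82 in cells with a Y-linked UMI) and Spp1 in T cells (-2.86 in cells with Xist). Except where noted, the cause of these changes was not tested. No replicate could be left out, since each site is 1 library. No paired analysis was possible because each site has 1 pooled library at this age and no test was run. The T and B cell gates of CBMA_12m rest on 116 and 54 cells, which limits every value read from them.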

Other observations

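Nonclassical monocytes, which patrol vessels and stand outside the 4 gates, were 5.52% of CBMA_12m and 3.99% of CBMD_12m (3 UMIs or more over Ace, Treml4, Cx3cr1 and Ear2), and macrophages with complement C1q transcripts were 1.14% and 0.918%. Over the cells in no gate, the nonclassical monocyte genes summed to 1635 and 1606 CPM, and the macrophage and dendritic genes to 920.4 and 831 CPM. In T cells Ikzf2, encoding Helios, stood at 304 and 644 CPM, and Klrb1c, a receptor of natural killer cells, at 108 and 41.3 CPM. T cells with a Foxp3 UMI were 8.62% and 5.45%. In neutrophils mitochondrial transcripts summed to 16311 and 10138 CPM, and ribosomal protein genes to 44687 and 43499 CPM.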
